A study of Mus musculus with 8 samples.

Results

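Collagen genes encode the chains of the most abundant proteins of the extracellular matrix. They were taken here as every gene of the deposited expression table whose symbol is Col, a type number, the letter a and a chain number. Of 38 such genes among 16505 in the table, 31 averaged 0 or more log2 CPM over the 8 libraries, and CPM is the read count scaled to the total of the library, with 0.5 added to each count. These 31 genes are described in full, and the other 7 by their levels. Col11a2 lay just inside this limit (mean 0.08) and Col17a1 just outside it (−0.07). An average of 0 or more was also reached within each group by 30 of the 31, the exception being Col11a2 in WT (−0.02). The 31 genes comprised 8 fibrillar chains, 6 type IV (basement membrane) chains, 6 type VI (beaded filament) chains and 11 chains of other classes.

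A collagen molecule is a triple helix of chains that may be alike or different. Fibrillar collagens are secreted as procollagens, trimmed at their ends and cross-linked by lysyl oxidases into fibrils that carry tension. Type IV collagen forms the sheet-like network of basement membranes, which in fat surrounds each adipocyte and each vessel, and type VI forms beaded filaments around adipocytes. In obese fat, the matrix is known to be remodelled and enriched in fibrillar collagen.

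Messenger RNA came from epididymal white adipose tissue, a visceral fat depot of male mice. All 8 mice were C57BL/6 and received a high fat diet for 12 weeks. The groups were 4 wild-type mice (WT) and 4 mice with the genotype Mir181 double-knockout (the knockout, KO in the plots). The labels name neither the deleted miR-181 loci nor a tissue restriction, and they do not give ages, litters or housing. P-values therefore measure only the spread between these samples.

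Total reads per library ran from 4081597 to 15410736 in WT and from 3736881 to 76838584 in the knockout. Markers of adipocytes summed to 8198 CPM or more in each of the 8 libraries. Several libraries stood apart from the rest. Ribosomal RNA ranged from 3.07% to 11.5% of all reads for WT replicates 1, 3 and 4 together with knockout replicate 1, and did not exceed 0.334% in the other 4. Epididymis transcripts (14 markers) took 1.17% to 2.48% in WT replicate 2 and knockout replicates 2 and 4, and no more than 0.00474% in any other library. Red blood cell transcripts took 0.406% and 1.20% in knockout replicates 3 and 4, and no more than 0.0826% in any other library.

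The 5p arms of the miR-181 family carry one seed, the bases 2 to 8 that pair with a target. They are shown because the deletion in the knockout concerns this family, with the seed in capitals (RefSeq, GRCm38.p6).
miR-181a-5p: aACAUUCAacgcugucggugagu
miR-181b-5p: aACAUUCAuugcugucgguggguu
miR-181c-5p: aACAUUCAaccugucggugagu
miR-181d-5p: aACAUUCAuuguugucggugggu

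The 7 bases TGAATGT, the complement of that seed, were searched on the sense strand of 1 annotated 3′ UTR per gene, the longest (GENCODE M21, GRCm38). They occurred in 8 of 31 collagen genes (25.8%) and in 2374 of 12844 tested genes with such a UTR (18.5%), at median UTR lengths of 1110 and 1185 bases. The 8 were Col4a1, Col4a4, Col5a1, Col5a2, Col6a3, Col6a5, Col12a1 and Col16a1. Of these, Col5a2 and Col6a3 were lower in the knockout, Col4a4 was higher, and the other 5 did not pass the threshold. These 3 of 8 are close to the share over all tested genes, of which 38.8% passed (22.7% higher and 16.1% lower). The sites of the 3 genes that passed are shown with their flanks and the match in capitals. A match is a description of letters and not a measured site.
Col5a2: gtgcccagtaaTGAATGTtaagactctcc
Col6a3: ataaagtatatTGAATGTgccatga
Col4a4: attgttgttgaTGAATGTattttctttta

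Fibrillar collagen RNA was lower in knockout fat, and with it the total collagen RNA. The 31 genes together took 1.31%, 1.28%, 1.45% and 1.52% of all reads in WT replicates 1 to 4, against 1.01%, 1.06%, 0.652% and 0.428% in knockout replicates 1 to 4. The 8 fibrillar genes took 0.705%, 0.730%, 0.793% and 0.950% in WT and 0.394%, 0.402%, 0.272% and 0.126% in the knockout. For both sums every knockout library lay below every WT library. The fibrillar share went from 0.795% ± 0.110 to 0.299% ± 0.129 (SD, n = 4), which is 2.66-fold lower. Wilson 95% intervals reach at most 0.00816 percentage points from a fibrillar share and 0.0111 from a collagen share, and cover counting error only.

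The shares of type IV and type VI genes were closer between the groups. Type IV genes took 0.249% ± 0.0209 in WT and 0.218% ± 0.0625 in the knockout, and type VI genes 0.239% ± 0.0159 and 0.170% ± 0.0808. Both pairs of groups overlapped. As a share of collagen reads alone, fibrillar genes made up 53.9% to 62.3% in WT and 29.6% to 41.7% in the knockout, while type IV genes made up 15.5% to 19.3% and 25.1% to 39.0%. Neither of these shares overlapped between the groups, and a fall of one class raises the others in such a share. The reads of each library come from a mixture of cells, so fewer cells of a type and less RNA per cell cannot be told apart.

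**Figure D1:**
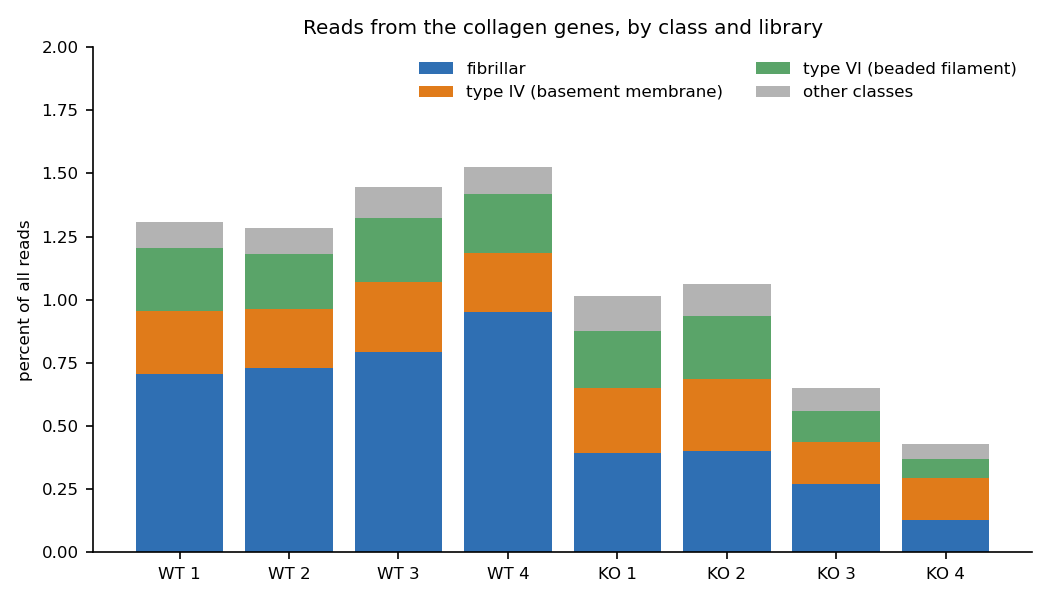
Percent of all reads from the 31 collagen genes in each library (1 bar per library, WT and KO replicates 1 to 4), stacked by class. The blue fibrillar part is 0.705% to 0.950% in WT and 0.126% to 0.402% in the knockout.

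Gene by gene, 3 of the 31 collagen chains rose in the knockout and 6 fell (limma, Benjamini-Hochberg adjusted p under 0.05 over all 13797 tested genes), and 22 did not pass. That is 9.68% higher and 19.4% lower, 29.0% in all, against 22.7% higher and 16.1% lower, 38.8% in all, over all tested genes. The collagen genes as a whole were thus not called more often than other genes. The median change was −0.22 for the 31 genes and 0.18 for all tested genes (log2, knockout minus WT). The 9 called genes were also the 9 with all 4 knockout libraries on one side of all 4 WT libraries, 3 above and 6 below. Such separation occurred in 20.8% of all tested genes upward, 16.6% downward and 37.4% in all.

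Counts and medians are given by class, with no test between classes. For comparison, an unadjusted limma p under 0.05 was reached by 6776 of all 13797 tested genes and by 11 of the 31 collagen genes. Of 8 fibrillar genes 4 were lower and 0 higher, with a median change of −1.04 and 5 at an unadjusted p under 0.05. Of 6 type IV genes 2 were higher and 0 lower, with a median of 0.84 and 3 at an unadjusted p under 0.05. Of 6 type VI genes 1 was lower and 0 higher, with a median of −0.42 and 1 at an unadjusted p under 0.05. The type VI median was −0.15 without knockout replicate 4 and 0.18 without knockout replicates 3 and 4, so its direction rested on those libraries. The 11 other genes gave 1 higher and 1 lower and a median of 0.12. Relative to the median of all genes, the fibrillar and type IV medians were −1.22 and 0.67. The 2 abundant type IV chains, Col4a1 and Col4a2, were not among the higher genes, and the type IV share of all reads was no higher in the knockout on average.

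The class medians were also taken among libraries of like ribosomal RNA content. Among those with more (3 WT, 1 knockout) they were −1.10 for fibrillar, 0.85 for type IV, 0.05 for type VI and −0.09 for other genes. Among those with less (1 WT, 3 knockout) they were −1.14, 0.20, −0.70 and −0.15. The fibrillar median was thus nearly the same in both, the type IV median smaller where ribosomal RNA was low, and the type VI and other medians not of one sign with the pooled ones. One group is a single library in each case, so these values carry no error.

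**Figure D2:**
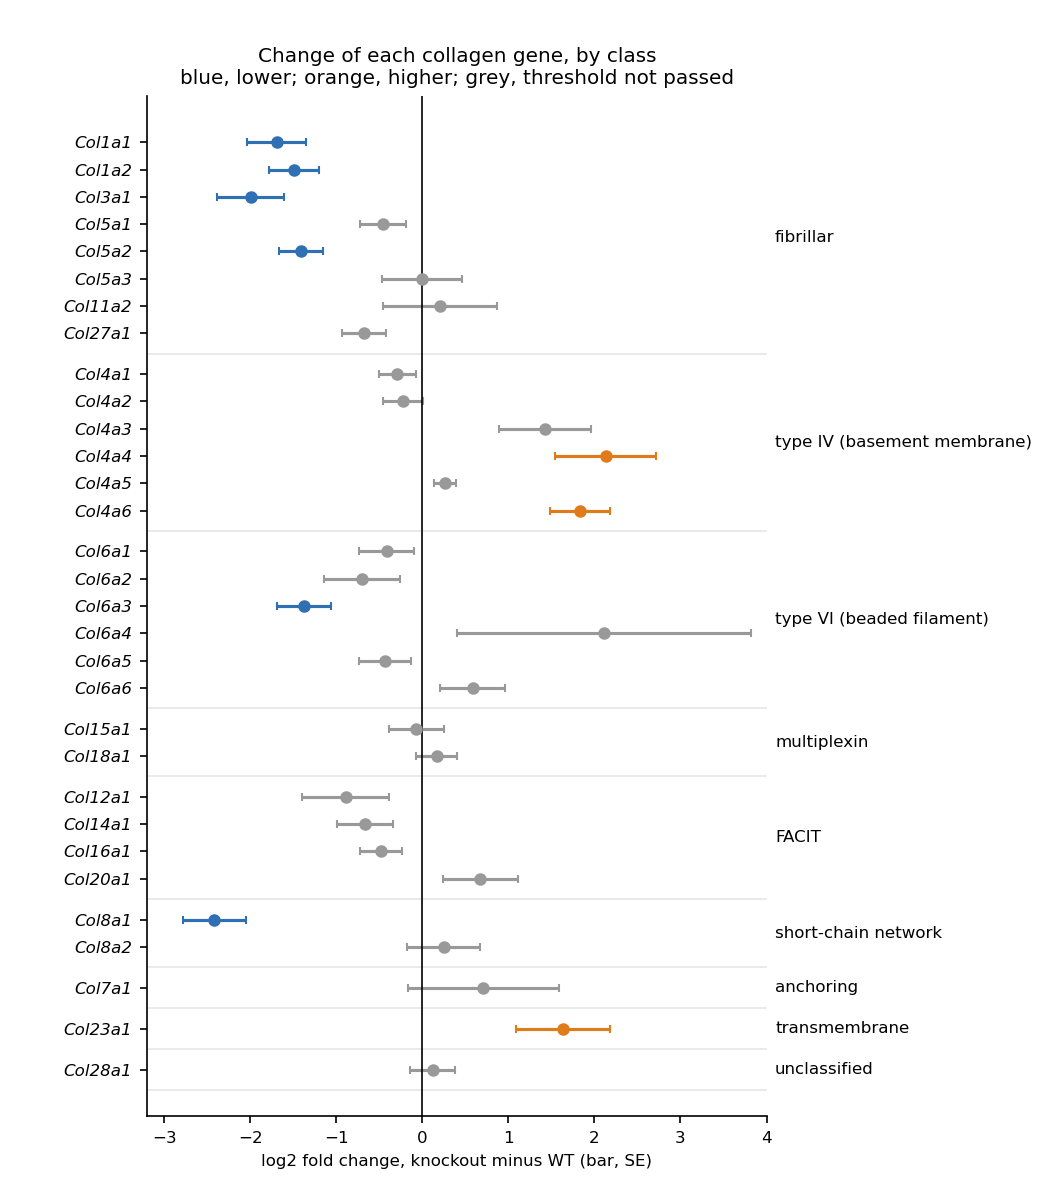
Change of each collagen gene (log2, knockout minus WT, point) with its SE (bar), grouped by class. Col1a1, Col1a2, Col3a1, Col5a2, Col6a3 and Col8a1 are lower (blue), Col4a4, Col4a6 and Col23a1 higher (orange), and the 22 grey genes did not pass the threshold.

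Type I and type III collagen make up most of the fibrils of connective tissue. Col3a1, the single chain of type III, stood at 11.90, 11.98, 12.11 and 12.37 log2 CPM in WT replicates 1 to 4 and at 10.69, 10.71, 10.09 and 8.89 in knockout replicates 1 to 4. All knockout values were lower, and replicate 4 was the lowest. The change was −1.99 ± 0.39 (SE, limma adjusted p = 0.00382), or 3.98-fold lower.

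Col1a1, the chain present in 2 copies in type I collagen, read 9.68, 9.68, 9.59 and 10.17 in WT and 8.52, 8.63, 8.25 and 6.96 in the knockout. The groups were clear of each other, with the highest value in WT replicate 4 and the lowest in knockout replicate 4. The change of Col1a1 was −1.69 ± 0.34 (limma adjusted p = 0.00469), or 3.23-fold lower. Its partner Col1a2 read 10.24, 10.33, 10.43 and 10.75 in WT and 9.37, 9.35, 9.06 and 8.02 in the knockout, again without overlap. Col1a2 was 2.81-fold lower (−1.49 ± 0.29, limma adjusted p = 0.00399). The within-library difference of Col1a1 and Col1a2 moved by −0.20 (exact permutation p = 0.0857), so the pair of chains was not shown to change unequally.

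The promoter windows of Col3a1 and Col1a2 (250 bases before to 50 after the annotated start, RefSeq, GRCm38.p6) are printed because these genes fell together. Capitals mark letters that match any of 3 motifs on either strand. The GC box was searched as GGGCGG. For the CCAAT box only those 5 letters were searched. The TATA box was searched as TATAAA. The Col3a1 window is chr1:45311288-45311587 (plus strand) and holds 1 TATA box. The Col1a2 window is chr6:4505368-4505667 (plus strand) and holds GC and CCAAT boxes and no TATA box. By these letters the 2 windows share none of the 3 motifs. Matches were counted anywhere in the window, whatever their distance from the start, and are not measured promoter elements.
Col3a1: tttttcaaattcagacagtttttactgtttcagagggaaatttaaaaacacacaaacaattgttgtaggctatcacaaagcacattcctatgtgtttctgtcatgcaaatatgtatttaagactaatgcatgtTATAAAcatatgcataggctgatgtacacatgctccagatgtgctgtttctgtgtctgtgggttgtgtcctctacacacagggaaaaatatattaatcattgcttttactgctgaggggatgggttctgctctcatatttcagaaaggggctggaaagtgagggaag
Col1a2: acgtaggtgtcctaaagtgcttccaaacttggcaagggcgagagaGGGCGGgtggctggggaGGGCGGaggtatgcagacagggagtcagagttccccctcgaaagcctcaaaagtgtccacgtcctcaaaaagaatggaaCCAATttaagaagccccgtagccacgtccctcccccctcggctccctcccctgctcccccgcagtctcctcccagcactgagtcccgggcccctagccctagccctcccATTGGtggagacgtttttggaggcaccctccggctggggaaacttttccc

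Across the collagen genes, 26 of 31 had an entry in the promoter table, with 28 windows. A GC box lay in 71.4% of these windows and in 35.7% of all 32851 windows, a CCAAT box in 32.1% and 37.4%, and a TATA box in 7.14% and 13.6%. No motif contains another. The comparison was with every window of the promoter table, whether or not its gene was tested here. These shares describe the windows only.

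Type V collagen co-assembles with type I and limits fibril width, and its chains did not move alike. Col5a2 read 8.80, 8.96, 9.11 and 9.21 in WT and 8.13, 8.06, 7.23 and 7.01 in the knockout, with no overlap. It was 2.67-fold lower (−1.41 ± 0.26, limma adjusted p = 0.00268). Col5a1, the chain it pairs with, read 8.39, 8.20, 8.45 and 8.46 in WT and 8.38, 8.43, 7.77 and 7.12 in the knockout. Replicates 1 and 2 of the knockout lay within the WT range, and Col5a1 did not pass (−0.45 ± 0.27, limma adjusted p = 0.204). Within each library, Col5a1 minus Col5a2 was −0.41, −0.76, −0.66 and −0.75 in WT and 0.25, 0.37, 0.53 and 0.11 in the knockout. The sign of this difference was opposite in the groups in every library, a shift of 0.96 at the smallest p that 4 against 4 allows (exact two-sided permutation p = 0.0286).

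Col5a3, a further type V chain known from fat and muscle, read 8.60, 8.44, 8.84 and 8.52 in WT and 9.34, 9.36, 8.69 and 7.01 in the knockout. Knockout replicates 1 and 2 lay above all WT values and replicate 4 below all of them, so the change was −0.00 ± 0.46 (limma adjusted p = 0.998). Without knockout replicates 3 and 4, the libraries with the most red blood cell reads, Col5a3 was higher by 0.75 (limma adjusted p = 0.00784). The part of blood in this change was not tested.

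The remaining fibrillar genes were low. Col27a1, a fibrillar chain known from cartilage, read 4.15, 4.19, 3.69 and 3.78 in WT and 2.77, 3.86, 3.51 and 2.98 in the knockout. Its groups overlapped through knockout replicate 2, and it did not pass (−0.67 ± 0.26, limma adjusted p = 0.0636). It passed as lower in 6 of 23 alternative analyses, one of which centred libraries on their medians (−0.82, limma adjusted p = 0.0229). The others used quantile normalization, array weights, ribosomal RNA content as a term or epididymis level as a term, or left out knockout replicate 2. Col11a2, a cartilage chain, lay between −1.32 and 1.22 over all libraries and did not differ beyond its spread (0.20 ± 0.66, limma adjusted p = 0.828).

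**Figure D3:**
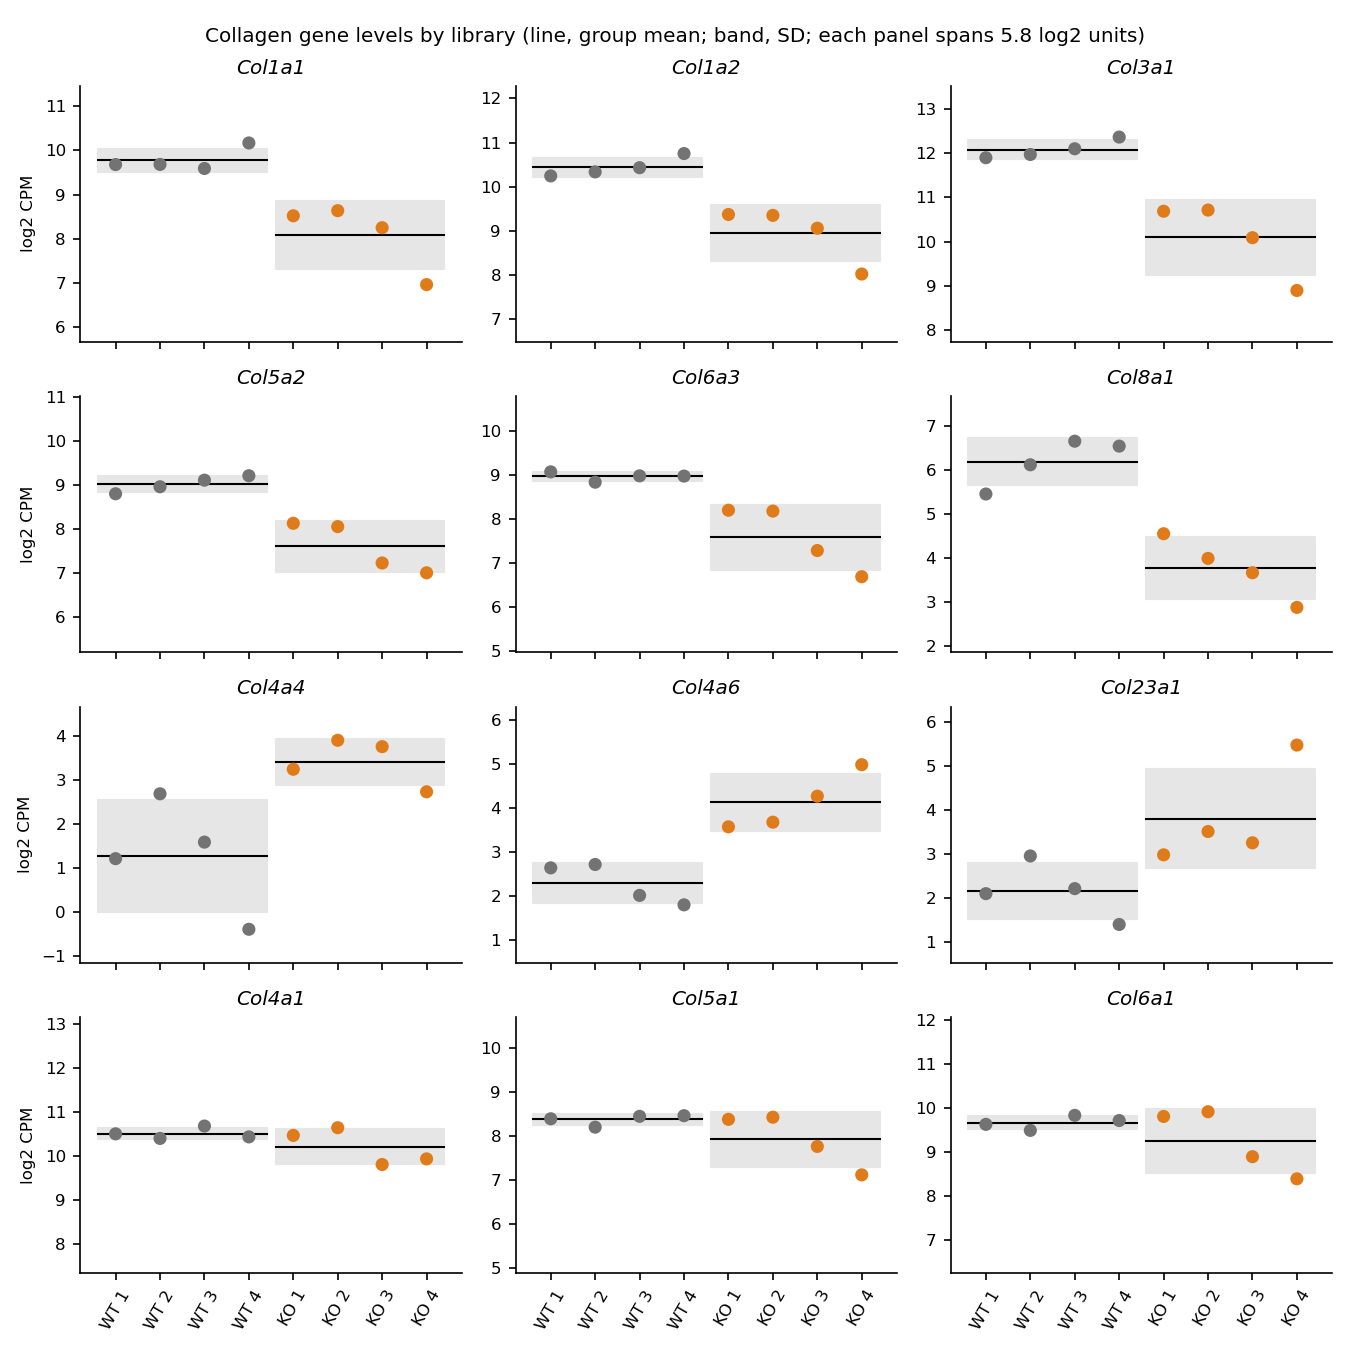
Level (log2 CPM) of 12 collagen genes in each library, WT in grey and knockout (KO) in orange, with the group mean (line) and SD (band). The top 6 panels fall without overlap, Col4a4, Col4a6 and Col23a1 rise without overlap, and Col4a1, Col5a1 and Col6a1 overlap.

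Type IV collagen is built from 6 chains that assemble in 3 sets. The set found in nearly all basement membranes holds Col4a1 and Col4a2, and neither passed. Col4a1 read 10.50, 10.40, 10.68 and 10.44 in WT and 10.47, 10.64, 9.81 and 9.94 in the knockout (−0.29 ± 0.21, limma adjusted p = 0.303). Col4a2 read 10.01, 9.84, 10.10 and 9.88 in WT and 10.07, 10.22, 9.38 and 9.26 in the knockout (−0.22 ± 0.23, limma adjusted p = 0.466). In both genes knockout replicates 1 and 2 lay near WT, and replicates 3 and 4 below all WT libraries. The difference between the chains, 0.55 ± 0.037 in WT and 0.48 ± 0.13 in the knockout, did not differ beyond its spread (exact permutation p = 0.371).

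Col4a1 and Col4a2 lie head to head, with annotated starts on chromosome 8 only 21 bases apart (11312826 on the minus strand and 11312805 on the plus strand, GRCm38.p6). The plus-strand start has the lower coordinate, so the annotated 5′ ends of the 2 genes overlap. Their promoter windows share 78 bases (11312777 to 11312854), most of which lie after the annotated start of each gene. The Col4a2 window, chr8:11312555-11312854 (plus strand), is printed with those shared bases in capitals because the difference between these neighbouring chains stayed between 0.40 and 0.67 in all 8 libraries.
Col4a2: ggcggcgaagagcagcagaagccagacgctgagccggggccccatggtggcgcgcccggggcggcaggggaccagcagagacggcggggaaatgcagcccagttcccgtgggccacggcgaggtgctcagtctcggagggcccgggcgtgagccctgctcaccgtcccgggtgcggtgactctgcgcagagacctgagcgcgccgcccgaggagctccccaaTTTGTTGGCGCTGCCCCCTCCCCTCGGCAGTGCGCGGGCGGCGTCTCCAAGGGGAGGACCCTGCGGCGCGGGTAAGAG

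Of the rarer type IV chains, Col4a4 and Col4a6 rose. Col4a6, which pairs with Col4a5 in smooth muscle and epithelial basement membranes, read 2.64, 2.72, 2.02 and 1.80 in WT and 3.57, 3.68, 4.27 and 4.98 in the knockout. Every knockout library was above every WT library, and replicate 4 was the highest. The rise was 1.83 ± 0.35 (limma adjusted p = 0.00336), or 3.56-fold. Among libraries with more and with less ribosomal RNA it was 1.42 and 1.59. Smooth muscle and pericyte markers moved with it in part. Their summed level was 349 to 456 CPM in WT and 583, 637, 540 and 3201 CPM in knockout replicates 1 to 4. Mesothelial markers summed to 70.3 to 161 CPM in WT and to 149, 260, 299 and 420 CPM in knockout replicates 1 to 4, the same order as Col4a6. The part of either set of cells in the change of Col4a6 was not tested.

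Col4a4, known with Col4a3 from the kidney filter, read 1.22, 2.69, 1.59 and −0.38 in WT and 3.25, 3.91, 3.76 and 2.74 in the knockout. The groups were separated by little, with WT replicate 2 just under knockout replicate 4. The rise was 2.13 ± 0.59 (limma adjusted p = 0.0187), or 4.39-fold, from 132 WT reads and 1813 knockout reads in all. It was 2.44 and 0.78 among libraries with more and with less ribosomal RNA, and it no longer passed in 4 of 23 alternative analyses. These were ribosomal RNA content as a term (1.61, limma adjusted p = 0.0703), median-ratio scaling factors (1.77, adjusted p = 0.0572), leaving out knockout replicate 3 (2.02, adjusted p = 0.0529) and leaving out knockout replicates 3 and 4 (2.30, adjusted p = 0.0657). Col4a3 read 1.73, 2.91, 0.63 and 0.53 in WT and 2.46, 3.51, 3.12 and 2.42 in the knockout. WT replicate 2 lay inside the knockout range, and Col4a3 did not pass (1.43 ± 0.53, limma adjusted p = 0.0605). It passed without WT replicate 2 (1.91, limma adjusted p = 0.00821), without the 3 libraries with over 1% epididymis reads (1.83, adjusted p = 0.0219) and with array weights (1.57, adjusted p = 0.0359).

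Col4a5, the chain shared by both rarer sets, read 4.64, 4.70, 4.96 and 4.71 in WT and 5.06, 5.22, 4.97 and 4.81 in the knockout. The groups overlapped through knockout replicate 4, which lay below WT replicate 3, and the gene did not pass (0.26 ± 0.13, limma adjusted p = 0.127). The starts of Col4a5 and Col4a6 lie head to head on the X chromosome, 1343 bases apart. In contrast to the pair on chromosome 8, Col4a5 minus Col4a6 went from 2.46 ± 0.54 to 0.89 ± 0.81, with no overlap (exact permutation p = 0.0286). Col4a5 minus Col4a1 was 0.55 higher in the knockout, also with no overlap (exact permutation p = 0.0286).

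Type VI collagen is made of Col6a1, Col6a2 and one further chain, in most tissues Col6a3, whose cleaved end is the adipokine endotrophin. Col6a3 read 9.06, 8.83, 8.97 and 8.97 in WT and 8.19, 8.17, 7.28 and 6.68 in the knockout. It was lower in every knockout library, 2.60-fold (−1.38 ± 0.31, limma adjusted p = 0.00801). Col6a1 read 9.63, 9.50, 9.84 and 9.72 in WT and 9.81, 9.92, 8.90 and 8.40 in the knockout, and Col6a2 read 9.66, 9.52, 9.86 and 9.67 in WT and 9.76, 9.91, 8.52 and 7.71. For both, knockout replicates 1 and 2 lay at or above most WT values and replicates 3 and 4 below all. Neither passed, at −0.41 ± 0.32 (limma adjusted p = 0.328) and −0.70 ± 0.44 (limma adjusted p = 0.231).

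Set against its partner Col6a1, Col6a3 was lower by nearly the same amount in each knockout library. Col6a3 minus Col6a1 was −0.57, −0.67, −0.86 and −0.75 in WT and −1.62, −1.75, −1.62 and −1.71 in the knockout. The shift of −0.96 far exceeded the SD of 0.13 in WT and 0.065 in the knockout (exact permutation p = 0.0286). It held in the libraries where Col6a1 was high and in those where it was low. Col6a1 minus Col6a2 shifted by 0.29 (exact permutation p = 0.0571), and by 0.038 without knockout replicates 3 and 4.

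The chains that can stand in for Col6a3 did not pass. Col6a5 read 8.38, 7.84, 7.45 and 7.42 in WT and 7.58, 7.35, 7.87 and 6.57 in the knockout (−0.43 ± 0.30, limma adjusted p = 0.277). Col6a6 read 4.66, 3.84, 4.06 and 2.99 in WT and 4.83, 4.44, 4.94 and 3.68 in the knockout (0.59 ± 0.38, limma adjusted p = 0.245). Both pairs of groups overlapped. Col6a4 followed the epididymis transcripts, at 5.11, 5.96 and 4.49 in WT replicate 2 and knockout replicates 2 and 4 against −1.44 to 0.36 in the other 5 libraries, and its change of 2.12 ± 1.71 did not pass (limma adjusted p = 0.349).

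Col8a1, of the other classes, had the largest fall of the 31 genes. It is a chain of the short network-forming type VIII collagen of vessel walls. Col8a1 read 5.45, 6.11, 6.65 and 6.54 in WT and 4.55, 3.99, 3.66 and 2.88 in the knockout. The groups did not overlap, and the fall was 5.34-fold (−2.42 ± 0.37, limma adjusted p = 0.00111). Its partner Col8a2 read 2.80, 3.09, 2.17 and 2.42 in WT and 1.74, 2.79, 3.91 and 3.03 in the knockout and did not pass (0.25 ± 0.43, limma adjusted p = 0.666). Col8a1 minus Col8a2 averaged 3.57 in WT and 0.90 in the knockout, but knockout replicate 1 (2.81) lay inside the WT range (exact permutation p = 0.0571). The Col8a1 promoter window, chr16:57754688-57754987 (minus strand, GRCm38.p6), is shown for this fall, with its 4 GC boxes in capitals.
Col8a1: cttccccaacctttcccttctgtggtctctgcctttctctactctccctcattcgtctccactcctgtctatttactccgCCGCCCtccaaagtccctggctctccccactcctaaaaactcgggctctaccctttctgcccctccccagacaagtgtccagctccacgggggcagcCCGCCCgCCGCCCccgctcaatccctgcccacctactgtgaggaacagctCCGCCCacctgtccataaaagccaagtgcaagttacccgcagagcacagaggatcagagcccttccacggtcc

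Col23a1, a transmembrane collagen, read 2.10, 2.96, 2.21 and 1.40 in WT and 2.98, 3.51, 3.25 and 5.47 in the knockout. It was higher by 1.64 ± 0.55 (limma adjusted p = 0.0411), with WT replicate 2 (2.96) almost touching knockout replicate 1 (2.98). The call was lost in 11 of 23 alternative analyses, among them the one without knockout replicates 3 and 4 (1.08, adjusted p = 0.107) and the one with ribosomal RNA content as a term (1.10, adjusted p = 0.152).

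The multiplexins Col15a1 and Col18a1, which sit in or beside basement membranes and release the fragments restin and endostatin, did not pass. Col15a1 read 9.08, 8.92, 9.18 and 8.96 in WT and 9.57, 9.38, 8.99 and 7.92 in the knockout (−0.07 ± 0.32, limma adjusted p = 0.879). Col18a1 read 7.77, 7.81, 7.95 and 7.72 in WT and 8.43, 8.42, 7.76 and 7.31 in the knockout (0.17 ± 0.24, limma adjusted p = 0.598). In both, knockout replicates 1 and 2 were above all WT values and replicate 4 below all. Without knockout replicates 3 and 4 both were higher, Col15a1 by 0.44 (limma adjusted p = 0.0479) and Col18a1 by 0.61 (limma adjusted p = 0.00627).

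The FACIT collagens (fibril-associated, with interrupted helices) sit on fibril surfaces, and none of the 4 passed. Col12a1 read 5.01, 5.31, 5.39 and 4.86 in WT and 5.23, 5.33, 3.04 and 3.42 in the knockout, so that replicates 1 and 2 were within the WT range and replicates 3 and 4 below it (−0.89 ± 0.51, limma adjusted p = 0.190). Without knockout replicates 3 and 4 its change was 0.14 (limma adjusted p = 0.594). Col14a1 ran from 6.52 to 7.29 in WT and from 5.24 to 6.75 in the knockout (−0.67 ± 0.33, limma adjusted p = 0.133). Col16a1 ran from 5.84 to 6.29 and from 4.96 to 6.12 (−0.48 ± 0.24, limma adjusted p = 0.146). Each of these pairs of ranges overlapped. Col20a1, far lower, ran from 0.43 to 1.56 and from 0.56 to 2.31 (0.67 ± 0.44, limma adjusted p = 0.247).

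The last 2 genes did not pass either. Col7a1, the anchoring fibril chain of skin, read 3.04 in WT replicate 2 and 3.65 and 3.61 in knockout replicates 2 and 4, against 0.27 to 1.49 in the other 5 libraries, the same split as the epididymis transcripts (0.71 ± 0.88, limma adjusted p = 0.544). Col28a1 ran from 2.59 to 3.63 in WT and from 2.71 to 3.29 in the knockout (0.12 ± 0.27, limma adjusted p = 0.743).

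The collagen genes were more spread in the knockout group. The SD over 4 libraries was larger in the knockout for 26 of the 31 genes, with a median SD of 0.26 in WT and 0.69 in the knockout. Knockout replicate 4 was the lowest of the 8 libraries for 16 genes, all of them among the 20 genes that averaged 4 or more log2 CPM. These counts were not taken over all tested genes, so they are not shown to be particular to collagen genes. Set against the WT means, the fibrillar median lay between −1.80 in knockout replicate 4 and −0.53 in knockout replicate 2, below 0 in each of the 4. The type IV median was 0.66, 0.93, 0.95 and 0.51 in replicates 1 to 4, above 0 in each, and the type VI median −0.06, 0.24, −0.53 and −1.24.

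Chain pairs were compared within libraries, which removes the scaling of the library. Of 14 pairs, 7 stood at the smallest possible p (exact two-sided permutation p = 0.0286, Benjamini-Hochberg adjusted p = 0.0571). None passed the adjustment, for which 9 pairs at that p would have been needed. Beside those given above, Col1a1 minus Col4a1 averaged −0.72 in WT and −2.13 in the knockout, a difference of −1.40. Col1a1 minus Col6a1 averaged 0.11 and −1.17, a difference of −1.28, and Col3a1 minus Col1a1 averaged 2.31 and 2.01, a difference of −0.30. The groups did not overlap for any of these 3. Col5a3 minus Col5a1, Col4a3 minus Col4a4 and Col15a1 minus Col18a1 moved by 0.45, −0.71 and −0.24 with exact permutation p = 0.143, 0.171 and 0.171.

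**Figure D4:**
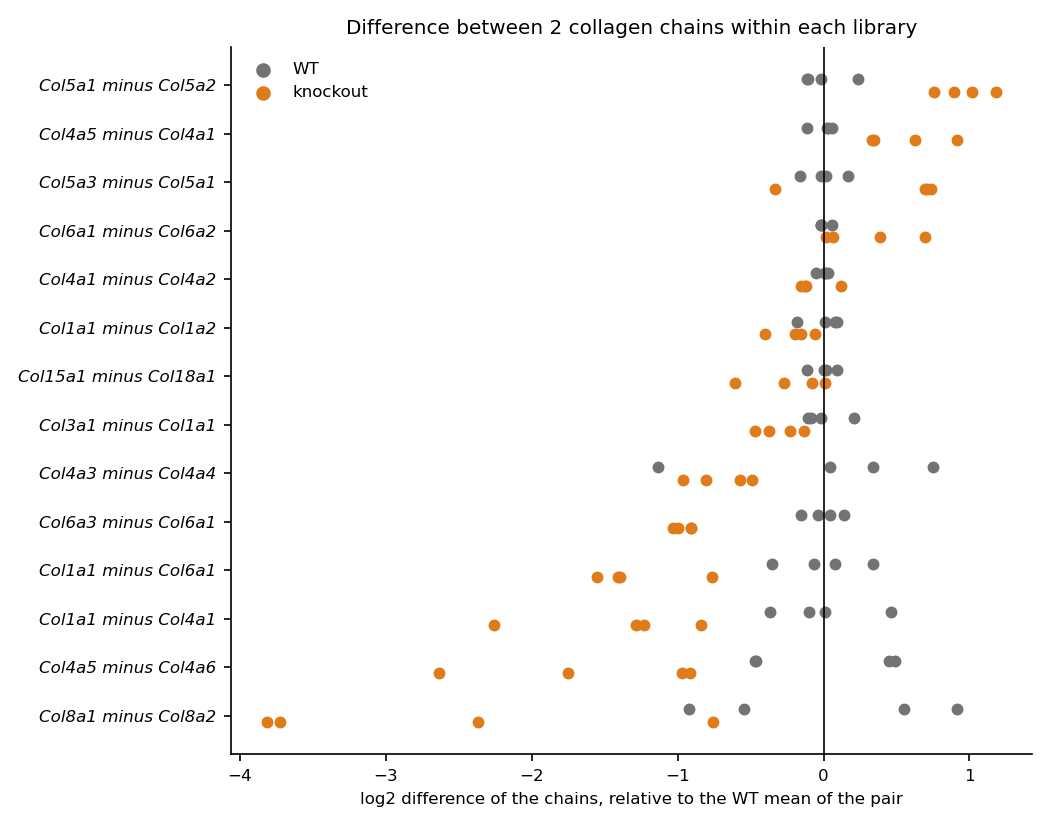
Difference of 2 collagen chains within each library (log2), drawn relative to the WT mean of the pair, with 1 point per library (WT grey, knockout orange). Col5a1 minus Col5a2 lies to the right of WT in all knockout libraries, and Col6a3 minus Col6a1, Col1a1 minus Col6a1, Col1a1 minus Col4a1 and Col4a5 minus Col4a6 to the left.

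Between genes, levels were compared as CPM per kilobase of the longest annotated protein-coding transcript. In WT, Col3a1 led at 789 ± 117 CPM per kb, followed by Col1a2 (262), Col4a1 (220), Col6a1 (200), Col6a2 (177), Col4a2 (154) and Col1a1 (150). In the knockout Col3a1 was still first at 220 ± 102, but Col4a1 (185), Col6a1 (163), Col4a2 (137) and Col6a2 (129) came next, with Col15a1 (105) and Col1a2 (98.3) after them. The SDs of knockout neighbours in this order overlap. Col1a1 stood at 50.2 CPM per kb there. The rising type IV chains stayed rare, Col4a6 at 0.766 in WT and 2.84 in the knockout and Col4a4 at 0.311 and 1.11, on the same scale.

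The 7 collagen genes under the level limit were Col9a3, Col11a1, Col13a1, Col17a1, Col22a1, Col24a1 and Col26a1. With no limit on level, 6 of them did not pass. Col24a1, a minor fibrillar chain known from bone, read 0.43, 0.18, 0.14 and 0.53 log2 CPM in WT and −2.90, −1.59, −2.10 and −1.89 in the knockout. It was lower by this fit (−2.44 ± 0.46, limma adjusted p = 0.00376), from 37 WT reads and 38 knockout reads in libraries of unlike depth. Its few reads limit how well the size is known.

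Genes that make, process, bind or partner collagen were read from 6 lists with 72 tested members. In all, 11 were higher and 25 lower (15.3% and 34.7%, beside the 22.7% and 16.1% of all tested genes), and 36 did not pass. The lists were not tested against each other. Values are log2 changes, knockout minus WT, ± SE.

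Of 20 genes for folding and hydroxylation of chains in the endoplasmic reticulum 6 were lower and 0 higher, with a median of −0.29. Plod2, a lysyl hydroxylase whose mark is used for stable cross-links, fell by 1.21 ± 0.16 (limma adjusted p = 0.000586). Colgalt1, which adds galactose to hydroxylysine, fell by 1.20 ± 0.14, Plod1 by 0.65 ± 0.11 and P4ha1, a prolyl hydroxylase subunit, by 0.75 ± 0.13. Serpinh1, the collagen chaperone HSP47, changed by −0.38 ± 0.21 and did not pass (limma adjusted p = 0.165).

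Of 7 genes for cleaving procollagen 4 were lower and 1 higher, with a median of −0.48. Pcolce, which enhances removal of the C-terminal end, fell by 1.44 ± 0.18, the N-end protease Adamts14 by 1.24 ± 0.18 and the C-end protease Bmp1 by 0.82 ± 0.14. Tll1, a relative of Bmp1, was the one that rose (1.23 ± 0.41, limma adjusted p = 0.0403). Of 12 genes for cross-linking and assembly 5 were lower and 2 higher, with a median of −0.45. Lum (lumican), a proteoglycan on fibrils, fell by 2.23 ± 0.27, and Loxl3, of the lysyl oxidase family, by 0.87 ± 0.11. Lox itself fell by 0.85 ± 0.24 (limma adjusted p = 0.0198), a call lost in 5 alternative analyses. These left out knockout replicates 3 and 4 (−0.41, limma adjusted p = 0.0801), the libraries with over 1% epididymis reads (−0.82, adjusted p = 0.0520), WT replicate 3 (−0.77, adjusted p = 0.0572) or knockout replicate 3 (−0.71, adjusted p = 0.0534), or took ribosomal RNA content as a term (−0.64, adjusted p = 0.0755). Pxdn, a peroxidase that forms the sulfilimine cross-link of type IV collagen, rose by 1.21 ± 0.23, and Sparc, a collagen-binding matrix protein, did not pass (−0.20 ± 0.37, limma adjusted p = 0.688).

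Of 14 basement membrane partners 5 were higher and 1 lower, with a median of 0.49. The laminin chains Lama5 and Lamb2 rose by 1.44 ± 0.16 and 0.96 ± 0.13, and Nid2, a nidogen that links laminin to type IV collagen, by 0.72 ± 0.16, while Lama2 fell by 0.58 ± 0.17. Of 10 collagen receptors 5 were lower and 2 higher, with a median of −0.23. Lair1, an inhibitory collagen receptor of leukocytes, fell by 3.29 ± 0.26, while Ddr1, a collagen-activated tyrosine kinase, rose by 1.54 ± 0.17 and Itga1, a collagen-binding integrin chain, by 0.96 ± 0.25. Itga1 did not pass without the libraries with over 1% epididymis reads (0.87, limma adjusted p = 0.0642). Of 9 genes of the TGF-beta input to collagen transcription 4 were lower and 1 higher, with a median of 0.01. The ligand Tgfb1 fell by 1.47 ± 0.14 and the receptor Tgfbr1 by 1.02 ± 0.14, while the ligand Tgfb3 rose by 0.78 ± 0.16.

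**Figure D5:**
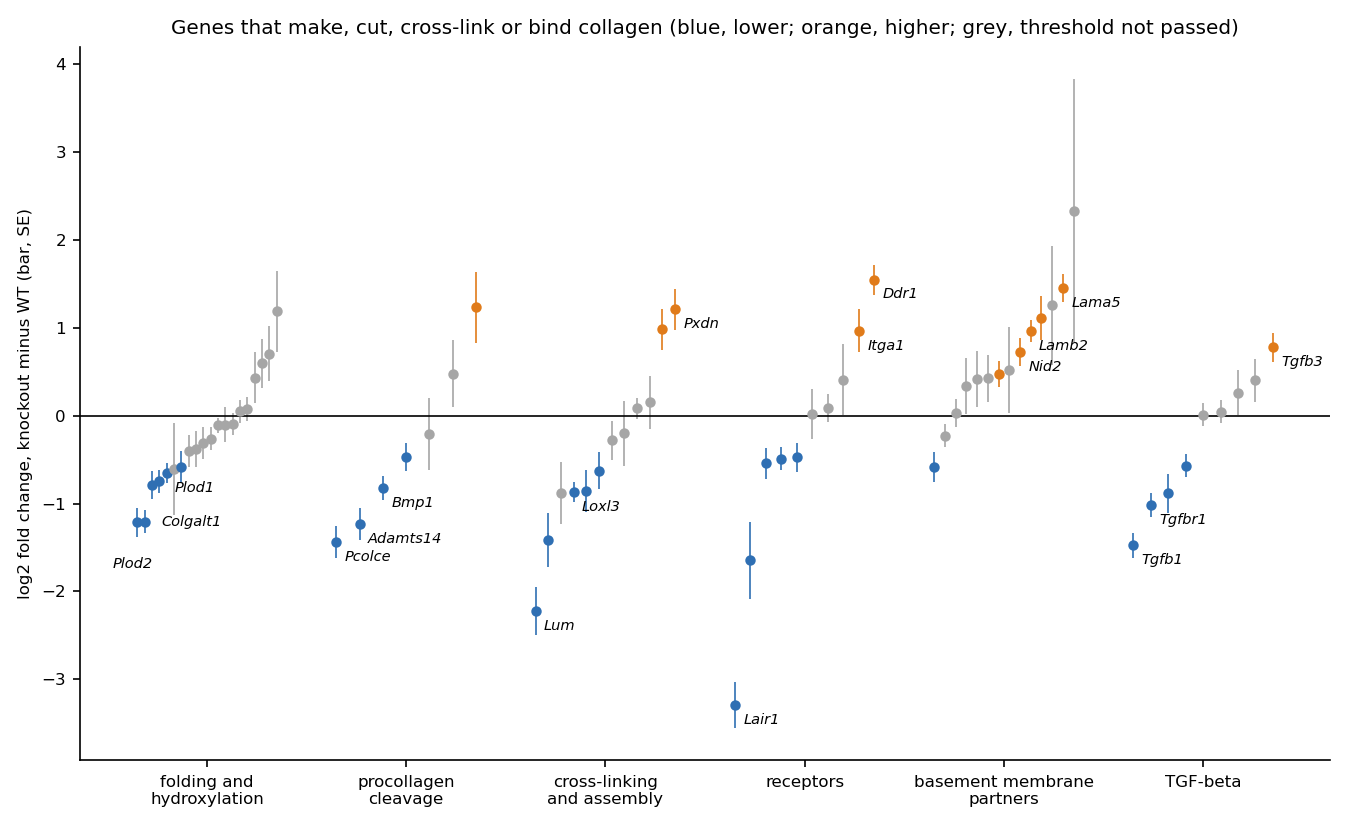
Change (log2, knockout minus WT, point) with SE (bar) of 72 genes in 6 lists of collagen synthesis, processing, assembly, binding and regulation. Blue genes are lower, orange higher and grey did not pass. Folding and hydroxylation holds 6 blue points and 0 orange, and basement membrane partners 5 orange and 1 blue.

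Markers of the cells in this tissue also differed between the groups, in both directions. Over all tested genes, 22.7% were higher and 16.1% lower, and the counts below are to be read beside these shares. Macrophage markers were lower in 8 of 8, with a summed level of 7363 to 8465 CPM in WT and 1374 to 2029 CPM in the knockout. Adipocyte markers were higher in 7 of 8 (8198 to 14537 CPM against 20266 to 34669 CPM) and endothelial markers in 7 of 7 (393 to 520 CPM against 779 to 1074 CPM). Mesothelial markers were higher in 4 of 6 (70.3 to 161 CPM against 149 to 420 CPM), and smooth muscle and pericyte markers were higher in 3 of 8 and lower in 1. Fibroblast and progenitor markers, which mark the main collagen-making cells, were higher in 2 of 10 and lower in 1 (6389 to 7452 CPM against 8658 to 13364 CPM), and the higher sum rested largely on Gsn (gelsolin), which rose by 1.31 ± 0.27. Pdgfra changed by −0.32 ± 0.12 and did not pass (limma adjusted p = 0.0567). No marker was at 0 in all libraries, and the part of these cell types in the collagen changes was not tested.

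Without knockout replicates 3 and 4, which carried the most red blood cell reads, 4 collagen genes were higher and 6 lower, but the higher genes were largely others. Over all tested genes, 3137 higher and 2216 lower became 1746 and 1880. Col4a6 stayed, Col4a4 and Col23a1 no longer passed, and Col5a3, Col15a1 and Col18a1 came in with the values given above. The 6 lower genes and Col4a6 kept their calls in all 23 alternative analyses. Over these the change of Col3a1 ran from −2.20 to −1.39, that of Col1a1 from −1.87 to −1.21, that of Col8a1 from −2.79 to −1.92 and that of Col4a6 from 1.33 to 2.05.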

How the data were processed

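Per the labels, polyA RNA of 8 libraries was read as 75-base single ends from a stranded TruSeq kit. Per the submitters' processing notes, Trimmomatic, TopHat2, featureCounts, limma and the mouse build mm9 were used. Their settings and versions were not given in the sources used here. A single table was deposited by the authors, with voom log2 CPM values. Reads worked out from these deposited log2 values were whole within 0.01 in 100% of cases, with 0.5 reads added and scaling to library totals only.

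Genes with a mean of at least 0 were tested with limma 3.58.1 (R 4.3.3, lmFit and eBayes with a trend, two-sided, adjusted p under 0.05 by Benjamini-Hochberg). The labels do not say that replicate numbers pair the samples, so the main fit used no pairing. On simulated reads for 13797 genes, 91% of 100 genes changed 2-fold and 100% of 100 changed 4-fold were recovered, with 9 false calls. The simulation gave both groups the same spread and held no outlying library. In the data the median SD of the collagen genes was 0.26 in WT and 0.69 in the knockout. The recovered shares therefore check the code and do not measure power in these data. All collagen genes are named, and per pathway list the 3 tested genes with the smallest p plus Serpinh1, Lox, P4ha1, Plod2, Sparc and Bmp1. Lama2, Gsn, Tll1, Pdgfra, Dpp4 and Mfap5 were added after their values were seen. Members and lists were chosen with earlier results of these data known. Alternatives covered transforms, filters, scaling, weights, blocks and left-out libraries. Leaving out libraries rich in red blood cell reads was added after seeing the data. Sequences and coordinates are of RefSeq GRCm38.p6 and GENCODE M21, not of mm9. Plots used matplotlib 3.10.9.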

Additional observations from a re-analysis of the deposited data

Results flagged for a closer look

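In 4 of 98 groups of 4 libraries a single library stood far from the other 3 by a gap test at the 95% level, which chance gives in about 1 in 20 groups. Col1a1 in WT replicate 4 read 10.17 log2 CPM, above 9.59 to 9.68 in the other WT libraries. Col5a3 minus Col5a1 in knockout replicate 4 was −0.11, below 0.92 to 0.96 in the other knockout libraries. Col4a1 minus Col4a2 in knockout replicate 4 was 0.67, above 0.40 to 0.43. Col6a1 minus Col6a2 in WT replicate 4 was 0.048, above −0.027 to −0.024 in the other WT libraries.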

How the results depend on the processing

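Library scaling, ribosomal RNA content and knockout replicates 3 and 4 limit the smaller changes, and members near 0 log2 CPM rest on few reads in the shallow libraries. Of the 3 higher collagen calls 1 was kept with median-ratio factors and 1 with ribosomal RNA class as a term (1 to 4 when a library was left out, with 1 without knockout replicate 3). Over all genes the 3137 higher calls became 2414 with median-ratio factors, 2255 with the ribosomal RNA term and 2206 without knockout replicate 3. The 6 lower calls became 12 with array weights (6 to 7 when a library was left out). Array weights also raised the calls over all genes, to 4428 higher and 2609 lower. Of the 22 genes that did not pass, 12 passed under some alternative. The 25 lower pathway genes became 16 without the libraries with over 1% epididymis reads, where the 2216 lower genes of all tested became 1711. Class medians moved to 0.55 (type IV) and −0.29 (other classes) with the ribosomal RNA term, and to 0.18 (type VI) without the libraries rich in red blood cell reads. Without the latter, Col15a1 (0.44) and Col5a3 (0.75) turned to higher, Col4a5 minus Col4a1 was 0.34 and Col6a1 minus Col6a2 0.038. The cause of these moves was not tested beyond the fewer samples. With a library left out, the pair differences ran from −0.36 to −0.23 (Col3a1 minus Col1a1), 0.36 to 0.71 (Col5a3 minus Col5a1), −0.13 to −0.040 (Col4a1 minus Col4a2), −1.08 to −0.46 (Col4a3 minus Col4a4), −1.79 to −1.21 (Col4a5 minus Col4a6), 0.43 to 0.63 (Col4a5 minus Col4a1), 0.15 to 0.38 (Col6a1 minus Col6a2), −3.30 to −2.28 (Col8a1 minus Col8a2), −1.59 to −1.12 (Col1a1 minus Col4a1) and −1.45 to −1.16 (Col1a1 minus Col6a1). Over all genes, 3137 higher and 2216 lower became 2444 and 2825 with median centring and 2478 and 2660 with quantile normalization, and the collagen counts became 3 and 7, and 2 and 7. Same-numbered replicates correlated at 0.36, 0.79, 0.24 and −0.36, only replicate 2 best with its own number. The labels do not say what the numbers mean, and these correlations cannot exclude a shared litter or batch. With the replicate block 4 collagen genes were higher and 6 lower, against 3 and 6 without it. Over all genes the block gave 3232 higher and 2136 lower. Under the block Col4a3 and Col6a6 passed and Col23a1 did not.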
